A study of Mus musculus with 3 samples.

Results

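IgG1 plasma cells that were not dividing were picked from single-cell RNA libraries of spleen B cells of female wild-type BXD2 mice, an inbred line known for spontaneous lupus-like disease. A cell was a member when it held at least 5 UMIs (unique molecular identifiers, each standing for 1 captured RNA molecule) of Edem1 and at least 20 of Mzb1, fewer than 3 of Mki67 and Top2a together, and when Ighg1 made up at least 80% of the UMIs of 6 heavy chain constant genes (Ighm, Ighg1, Ighg2b, Ighg2c, Ighg3 and Igha). This left 200 members of 35102 cells, and of 1873 non-dividing plasma cells of any class. The same gate gave 699 IgM, 788 IgG2b or IgG2c, 86 IgG3 and 49 IgA cells, and 51 cells in which no class reached the 80%.

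In the IL-4+R848 group, mice received a long-acting complex of 5 µg IL-4 and 25 µg of an anti-IL-4 antibody. In the R848 group they received 25 µg of the antibody alone. All mice of both groups were given R848, which activates TLR7, an endosomal receptor for RNA, 2 hours later at a dose of 40 µg per 20 g of body weight. Both injections were repeated after 2 days and spleens were taken 2 days after that, with 3 mice per treatment and B cells enriched by negative selection. The treatments were told apart by hashtag antibodies and shared each of 3 libraries, called sets 1, 2 and 3. There were 61 members from IL-4+R848 mice (38, 6 and 17 in the 3 sets) and 139 from R848 mice (37, 29 and 73). Whether a set stands for 1 mouse of each treatment is not in the labels, and the p-values therefore reflect variation among sets that may be technical.

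Plasma cells are the end stage of the B cell lineage: they keep few B cell surface proteins and turn most of their translation to one antibody, which is folded in the endoplasmic reticulum (ER), joined with sugars and secreted. An activated B cell first makes IgM, and a switch recombination event then places another constant gene, such as that of IgG1, behind the same variable region. In mice, IL-4 is the classical signal for the switch to IgG1 and IgE, while TLR7 signals and interferons favour IgG2c and IgG2b. IgG1 plasma cells are therefore the class on which IL-4 would be looked for first.

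Members were deep cells, with a median of 19601 UMIs in the IL-4+R848 group and 20145 in the R848 group, and 1295138 and 2817395 UMIs in all. No barcode was shared between members of different sets. A further 44 cells (14, 12 and 18 in the 3 sets) met the gene rule but had no hashtag at least 4 times the other plus 1, and were removed. Whether these were doublets or weakly tagged single cells was not tested. Hashtags were weaker on IgG1 than on IgM plasma cells: the median UMIs of a cell's own tag were 854 to 955 in IL-4+R848 and 260 to 478 in R848 members, against 2312 to 2747.5 and 1177 to 1649 in IgM cells. The own tag was under 10 times the other in 5.26%, 16.7% and 23.5% of IL-4+R848 members and in 45.9%, 62.1% and 61.6% of R848 members. The treatment of R848 members is therefore less certain than that of IL-4+R848 members.

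The rule fixed the following values, which are given as a description. Members held a median of 22.5 UMIs of Edem1, which takes misfolded proteins out of the ER, and 115 of Mzb1, an ER protein that helps antibody assembly. They held a median of 495 UMIs of Ighg1 (lowest 51, highest 2787), and the median Ighg1 share of the 6 constant genes was 99.3%. The threshold on that share cut through few cells: 8 members lay at 80% to 90%, and 4 otherwise like cells lay at 70% to 80%. At the other edges, 15 members held 5 to 7 UMIs of Edem1 and 9 cells held 2 to 4, while 29 members held 2 UMIs of Mki67 and Top2a and 16 cells held 3.

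The label was compared with markers that the rule did not use. Jchain, which links antibody units, was found in 200 of 200 members, at 21437 to 22579 CPM (a gene's UMIs scaled to a common total of UMIs, here without further normalisation) in the 3 sets, against 31.4 to 125 CPM in cells without plasma cell genes and 7.52 to 72.4 CPM in cells that passed a gate for natural killer (NK) cells. Sdc1, the gene of CD138, was found in 168 of 200 members. The CD138 antibody tag had medians of 285 to 453 UMIs per member by set and treatment, against 4 to 8 in cells without plasma cell genes and 2 to 5.5 in NK-gate cells. Members also kept B cell transcripts: Ms4a1, which encodes CD20, was found in 54% and H2-Aa, an MHC class II chain, in 92.5%. After thinning to 10000 UMIs per cell these were 43.4% and 81.1% of 196 members, against 0% and 35% of 20 NK-gate cells (0.901% and 16.2% of 111 before thinning, at a median depth of 6746 UMIs against 20114 in members). The shares in members lay above those in NK-gate cells for both genes. Summed markers of other cell types were low in both treatments. In IL-4+R848 sums, 8 T cell genes together held 31.4, 6.76 and 5.22 CPM in sets 1 to 3, and in R848 sums 1.39 to 2.87 CPM. Apart from the 31.4 CPM of set 1, each value lay below what 3 counts would give in its sum (2.14 to 20.3 CPM). These low values therefore do not separate the treatments. In the IL-4+R848 sums the T cell genes with counts were Lck and Cd3g in set 1, Cd3g in set 2 and Lck in set 3. Cd3d, Cd3e, Trac, Cd5 and Cd8a were at 0 in each of the 6 sums of both treatments. The part of T cell RNA in the treatment results was not tested. Monocyte or macrophage genes reached 26.1 CPM in the IL-4+R848 sum of set 3 and at most 4.28 CPM in R848 sums, NK genes at most 3.93 and 2.14 CPM, and erythroid genes were at 0 throughout.

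The first question was whether IL-4 changed how many IgG1 plasma cells there were, and no change could be shown. IgG1 cells made up 13.8%, 5.83% and 10.9% of the non-dividing plasma cells in sets 1 to 3 with IL-4+R848, and 8.60%, 9.48% and 12.1% with R848. The means were 10.2 ± 4.04% and 10.1 ± 1.82% (SD, n = 3 sets each), with a two-sided exact permutation p of 1.0, where 0.10 is the lowest that 3 sets against 3 allow. The share was higher with IL-4+R848 in set 1 and lower in sets 2 and 3, and without set 1 the difference was -2.43 percentage points.

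As a share of all cells, IgG1 plasma cells stood at 0.741%, 0.131% and 0.335% with IL-4+R848 and at 0.518%, 0.514% and 0.969% with R848. Means were 0.402 ± 0.311% and 0.667 ± 0.262% (SD, n = 3 sets each, exact permutation p = 0.40). Plasma cells of every class together had means of 3.56 ± 1.62% with IL-4+R848 and 6.48 ± 1.35% with R848 and were lower with IL-4+R848 in 3 of 3 sets (exact permutation p = 0.10). With the 10-fold tag ratio, the difference in the IgG1 share of all cells turned to 0.0537 percentage points. Among plasma cells, IgM had means of 41.8% with IL-4+R848 and 38.9% with R848, and IgG2b and IgG2c of 37.0% and 41.2% (exact permutation p = 0.90 for both). IgA, at 4.79 ± 1.83% with IL-4+R848 and 2.01 ± 0.648% with R848, was higher with IL-4+R848 in 3 of 3 sets (exact permutation p = 0.10), on 24 and 25 cells in all.

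The rule removed dividing cells, so these were counted apart. Of all IgG1 cells of the Edem1 and Mzb1 gate, 25.5%, 40.0% and 29.2% were dividing with IL-4+R848 and 19.6%, 31.0% and 25.5% with R848. The share was higher with IL-4+R848 in 3 of 3 sets, at 1.30, 1.29 and 1.14 times that with R848. Means were 31.6 ± 7.54% and 25.3 ± 5.70% (SD, n = 3 sets each), and the exact permutation p was 0.50. That test did not pair the treatments of a set, so it cannot decide on a shift within sets. Set 2 with IL-4+R848 rested on 4 of 10 cells, for which the 95% exact binomial interval is 12.2% to 73.8%. With the 10-fold tag ratio the difference was -2.88 percentage points.

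**Figure D1:**
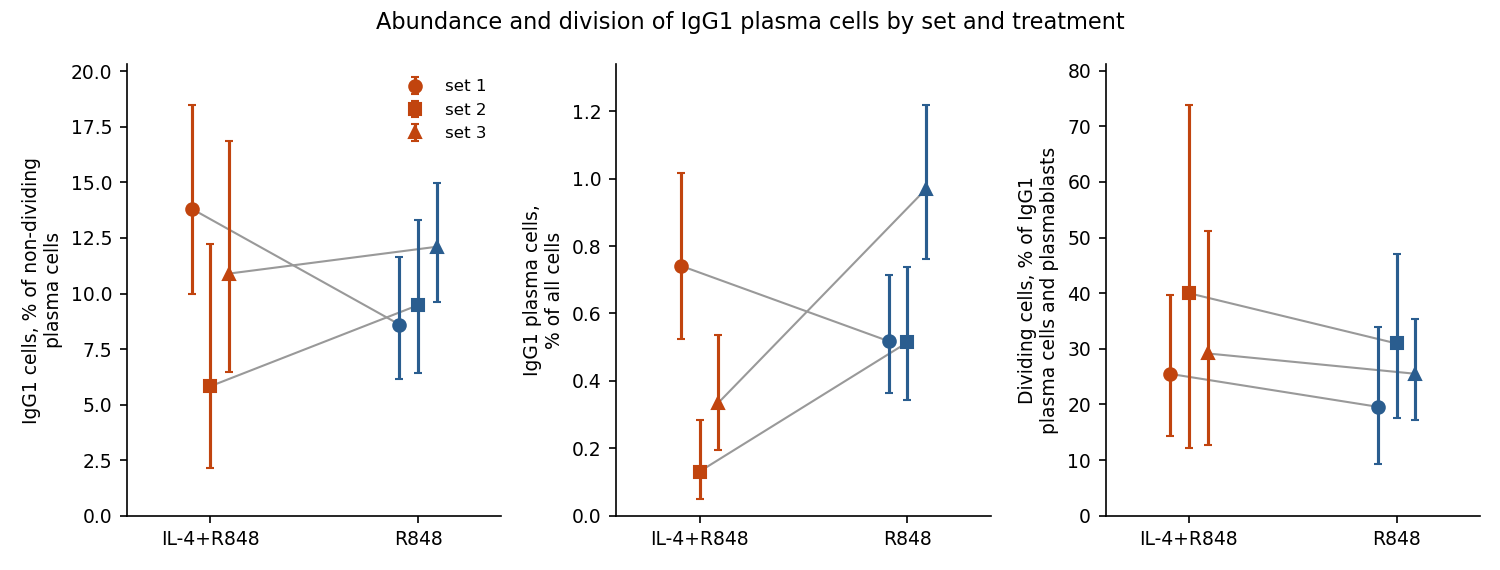
Shares of IgG1 plasma cells by treatment, in percent: of non-dividing plasma cells (left), of all cells (middle), and the dividing share of IgG1 cells (right). Points are sets, lines join the 2 treatments of a set, and bars are 95% exact binomial intervals that cover counting error only; the treatments overlap in each panel.

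Outside the immunoglobulin genes, the largest rise in IgG1 members over IgM plasma cells among the genes tested was in Slpi, the gene of secretory leukocyte protease inhibitor, a small secreted protein that blocks neutrophil elastase and related enzymes. Slpi lies on mouse chromosome 2 (164354070 to 164389095, minus strand, GRCm38, GENCODE vM21). For this comparison UMIs were summed over the cells of a class in each set and treatment, leaving out the IL-4+R848 sum of set 2 with its 6 members, and CPM are on TMM-normalised library sizes. In IgG1 sums Slpi stood at 25194 and 22272 CPM with IL-4+R848 (sets 1 and 3) and at 13610.1, 21176 and 17177 CPM with R848 (sets 1 to 3). In IgM sums it stood at 1764 and 506 CPM with IL-4+R848 and at 520.3, 380 and 867 CPM with R848. Each IgG1 sum lay above each IgM sum, and the log2 fold change was 4.82 ± 0.40 (SE, edgeR quasi-likelihood test, BH-adjusted p = 0.000705). Over the 10 alternatives run it lay between 4.57 and 5.53 and stayed past the threshold of 0.05.

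The start of Slpi is shown because this gene had the largest rise outside the immunoglobulin genes. The window holds 250 bases before and 50 after the RefSeq start (GRCm38.p6, chr2:164356458-164356757, minus strand), in lower case throughout because none of 4 searched motifs was found in it on either strand:
Slpi: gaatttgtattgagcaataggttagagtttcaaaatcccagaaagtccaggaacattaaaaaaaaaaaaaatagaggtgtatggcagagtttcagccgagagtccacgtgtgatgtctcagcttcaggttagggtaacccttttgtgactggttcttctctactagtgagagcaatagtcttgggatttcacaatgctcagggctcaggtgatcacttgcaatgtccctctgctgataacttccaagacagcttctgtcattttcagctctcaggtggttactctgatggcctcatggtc
The motifs were a STAT6-type palindrome, which 6.95% of 32851 such windows of all genes hold, a GAAA repeat of the type bound by interferon regulatory factors and Blimp-1 (3.44%), TGACGTGG, an element of the unfolded protein response (0.676%), and the octamer ATTTGCAT (1.74%). A missing match says only that these letters are not in this window.

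Slpi was not even across members. It was found in 173 of 200 members, and the 20 members with most of it held 48.2% of the 65485 Slpi UMIs. Thinned to 10000 UMIs per cell, 84.2% of 196 IgG1 members and 21.6% of 606 IgM cells had a Slpi UMI (86.5% and 25.9% unthinned, at median depths of 20114 and 14869 UMIs). In NK-gate cells, where any Slpi would be free RNA, 0 of 20 had one after thinning and 5.41% of 111 before, at a median depth of 6746 UMIs. Most members thus held Slpi well above this background, while most IgM cells held none. Across the 200 members, pooled over sets and treatments, the Spearman correlation of Slpi per 10000 UMIs was 0.01 with the CD138 tag. It was 0.00 with the immunoglobulin share of UMIs and -0.12 with Jchain. In sets 1 to 3 it was 0.06, 0.07 and -0.06 with the tag, and 0.09, 0.21 and -0.10 with the share. With Jchain it was -0.09, -0.06 and -0.17, weak but negative in each set. The largest pooled values were 0.22 with Ms4a1 (0.22, 0.22 and 0.21 by set) and 0.22 with Tmem176b (0.38, 0.19 and 0.09). Slpi thus showed no clear relation to the tag or the share, and none of these correlations was tested. Set 2 with IL-4+R848 stood apart: 3 of its 6 members had no Slpi UMI and their median was 0.306 per 10000 UMIs, against medians of 44.8 to 87.3 in the other 5 groups of members.

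Slpi levels also differed among the switched classes. Summed over both treatments and without further normalisation, IgG1 members stood at 14370 to 17845 CPM in the 3 sets and IgG2b or IgG2c cells at 9770 to 10265 CPM. By treatment, set 2 with IL-4+R848 went the other way, at 3650 CPM in IgG1 and 9934 CPM in IgG2b or IgG2c cells. IgA cells stood at 1188 to 5876 CPM, IgG3 cells at 578 to 5302 CPM and IgM cells at 466 to 1014 CPM. IgA and IgG3 overlap each other, and the lowest IgG3 set lies within the IgM range. NK-gate cells held 2.51 to 50.7 CPM and cells without plasma cell genes 20.6 to 47.3 CPM.

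Against IgM cells, 686 of 5549 genes passed the test, which is 12.4% of the genes tested (6.36% higher and 6% lower in IgG1 cells), and 1510 (27.2%) had an unadjusted p under 0.05. Of these, 676 were neither immunoglobulin variable genes nor genes of the rule, 350 of them higher and 326 lower, and the median log2 fold change of all genes tested was -0.01. Calls were sensitive to the number of sums: without set 1, 2 or 3 the counts were 276, 381 and 149, and 242, 355 and 135 of the 686 genes were called again. With the 10-fold tag ratio 328 genes passed. The genes named as raised or lowered below passed under all alternatives run in which they were tested, unless the text gives an adjusted p with which one was lost; some of the genes so marked were also lost under other alternatives.

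Tmem176b and Tmem176a, neighbouring genes of membrane proteins studied mainly in dendritic cells, followed Slpi. Tmem176b stood at 377 and 196 CPM in IgG1 sums with IL-4+R848 and at 306, 182 and 230.4 CPM with R848. In IgM sums it stood at 28.6 and 42.7 CPM with IL-4+R848 and at 14.0, 16.0 and 14.3 CPM with R848. The groups did not overlap, and the log2 fold change was 3.65 ± 0.27 (SE, adjusted p = 0.00044). Tmem176a averaged 152 ± 53.1 CPM in IgG1 and 18.0 ± 8.06 CPM in IgM sums (SD, n = 5 sums each; log2 fold change 3.24 ± 0.25, adjusted p = 0.000518). Thinned to 10000 UMIs, 48.5% of IgG1 members and 8.25% of IgM cells had a Tmem176b UMI (55.0% and 9.30% unthinned), against 1 in 20 NK-gate cells (5%).

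Both genes lie head to head on chromosome 6, Tmem176a at 48840919 to 48847071 on the plus strand and Tmem176b at 48833818 to 48841496 on the minus strand (GRCm38), and overlap by 577 bases. Whether reads were counted by strand is not given in the sources used here, so reads from the overlap could count for either gene. A start window of Tmem176a is shown because both genes moved together and share it (RefSeq, GRCm38.p6, chr6:48841233-48841532, plus strand, 250 bases before and 50 after the start). Both genes have further RefSeq starts. The lower-case bases lie in another start window of Tmem176b (chr6:48841088-48841387, minus strand). Capitals mark the 208 bases that also lie in the Tmem176b window chr6:48841325-48841624 on the other strand:
Tmem176a: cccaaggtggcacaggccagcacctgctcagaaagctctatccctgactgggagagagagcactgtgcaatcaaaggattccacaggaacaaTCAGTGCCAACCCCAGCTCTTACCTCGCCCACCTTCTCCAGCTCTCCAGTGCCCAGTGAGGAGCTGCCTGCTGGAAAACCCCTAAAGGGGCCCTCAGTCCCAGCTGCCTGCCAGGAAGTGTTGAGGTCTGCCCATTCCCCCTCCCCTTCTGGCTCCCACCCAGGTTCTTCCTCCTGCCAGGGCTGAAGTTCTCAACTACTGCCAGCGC
The same 4 motifs were not found in this window.

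Other genes with large rises in IgG1 cells were lower in level. Upk3a, which encodes a uroplakin of the bladder lining, averaged 23.0 ± 9.74 CPM in IgG1 and 1.37 ± 0.836 CPM in IgM sums (log2 fold change 3.78 ± 0.27, adjusted p = 0.00044). Inka1, an inhibitor of the kinase PAK4, averaged 27.8 ± 9.42 and 3.67 ± 1.09 CPM (3.08 ± 0.27, adjusted p = 0.000823). Kcnn4, a calcium-activated potassium channel of lymphocytes, averaged 69.5 ± 33.4 CPM in IgG1 and 15 ± 3.81 CPM in IgM sums (2.25 ± 0.18, adjusted p = 0.000557). Fads3, a fatty acid desaturase, averaged 24.1 ± 10.6 and 2.16 ± 1.11 CPM (3.37 ± 0.40, adjusted p = 0.00273), and its adjusted p was 0.0559 without set 3. Ccnd2, a D-type cyclin, averaged 102 ± 17.4 CPM in IgG1 and 49.1 ± 7.20 CPM in IgM sums (1.06 ± 0.07, adjusted p = 0.000364), although the rule had removed dividing cells from both classes.

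The genes with large falls included Ly6d, Cd36 and St3gal6. Ly6d, a surface protein of the early B lineage, stood at 247 and 280 CPM in IgG1 sums with IL-4+R848 and at 227, 229.9 and 213 CPM with R848. In IgM sums it stood at 1518 and 1860.4 CPM with IL-4+R848 and at 1717, 1846 and 1608 CPM with R848. The groups were far apart, with a log2 fold change of -2.84 ± 0.18 (SE, adjusted p = 0.000309).

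Cd36, a scavenger receptor that in mouse B cells is known from the marginal zone, averaged 6.43 ± 3.58 CPM in IgG1 and 71.9 ± 3.85 CPM in IgM sums (SD, n = 5 each; -3.48 ± 0.22, adjusted p = 0.000309). After thinning it was found in 5.10% of IgG1 members and 41.4% of IgM cells (6.50% and 51.5% unthinned), and in 0 of 20 NK-gate cells. St3gal6, a sialyltransferase, averaged 6.42 ± 7.49 and 68.9 ± 15.9 CPM (-3.75 ± 0.38, adjusted p = 0.00136), and Atp1b1, a subunit of the sodium pump, 4.81 ± 5.42 and 44.7 ± 15.1 CPM (-3.04 ± 0.34, adjusted p = 0.00236). Pinlyp, named for an inhibitor domain of phospholipases, had 0 UMIs in the 5 IgG1 sums and 213 in the IgM sums, at least 28.2-fold lower against a floor of 3 counts over the IgG1 sums. Myof, a membrane repair protein of the ferlin family, had 1 UMI in the IgG1 sums and 236 in the IgM sums. Satb1, a chromatin organiser, averaged 3.31 ± 3.04 and 20.2 ± 4.22 CPM (-2.80 ± 0.44, adjusted p = 0.00763). Without set 3 the adjusted p was 0.0563 for Pinlyp, 0.0545 for Myof and 0.0683 for Satb1. Tmed6, a cargo receptor of the early secretory path, varied widely among IgG1 sums, from 8.38 to 344 CPM, against 597 to 1089 CPM in IgM sums (-3.24 ± 0.86, adjusted p = 0.0489), and lost its call without set 1, 2 or 3 (adjusted p = 0.156, 0.125 and 0.0667).

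**Figure D2:**
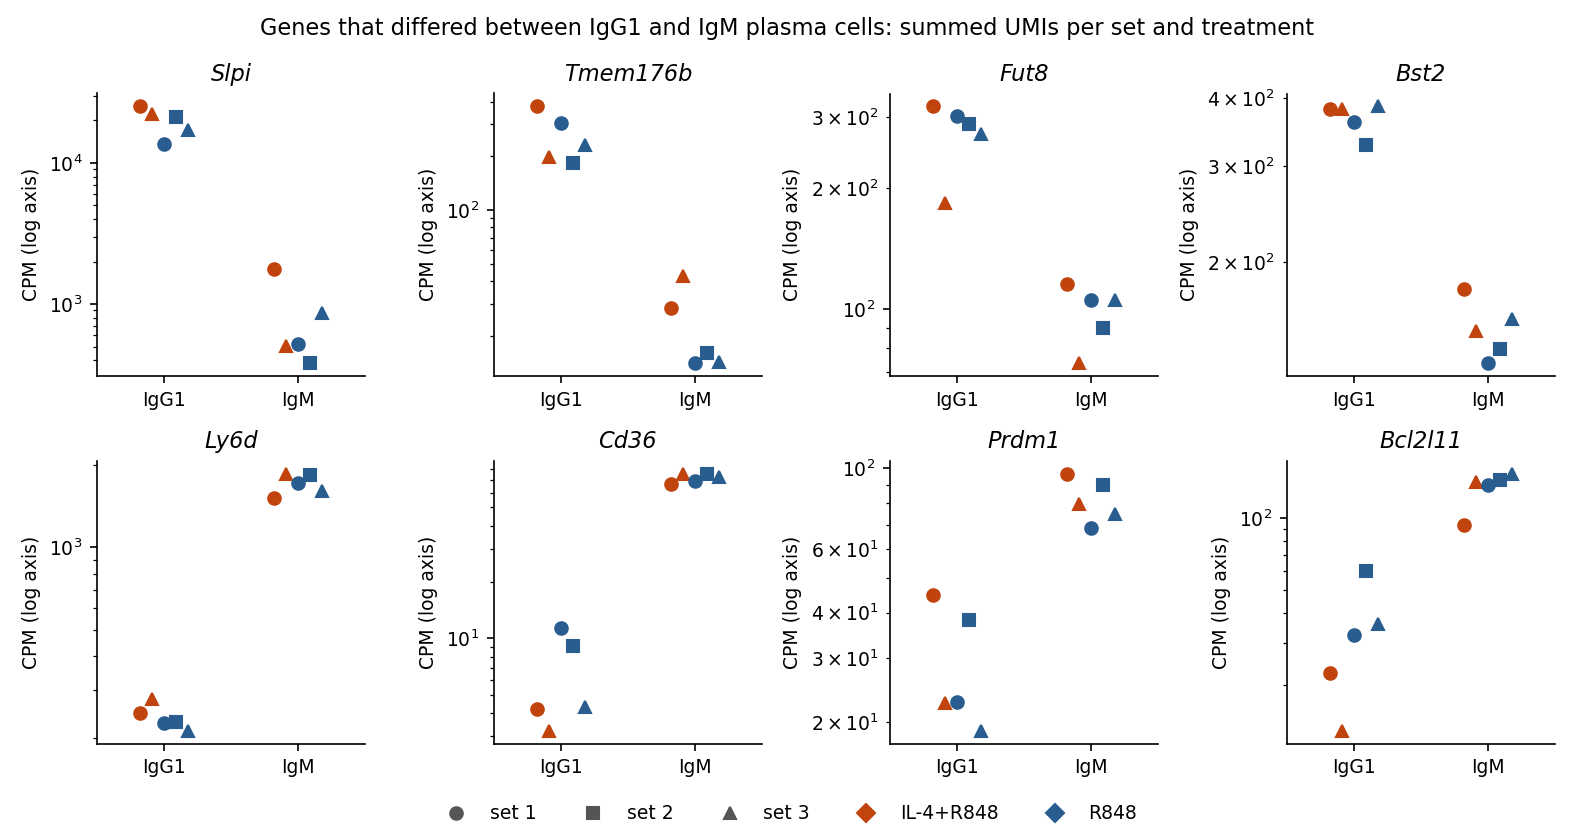
Levels of 8 genes in IgG1 (left) and IgM (right) plasma cells, in CPM on TMM-normalised library sizes, on log axes. Each point is the summed UMIs of a class in a set and treatment (5 per class), and the groups do not overlap in any panel.

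Genes that mark plasma cells moved in both directions. Of the 16 genes of a plasma cell identity list, 3 were higher in IgG1 cells, 4 were lower and 9 did not pass, with a median log2 fold change of 0.06, against -0.01 over all genes tested. For this list and those below, the background is the share over all genes tested, 6.36% higher and 6% lower. Beside Slpi, the rises were Fkbp11, an ER folding enzyme (0.79 ± 0.14, adjusted p = 0.0118), and Sdc1 (0.48 ± 0.11, adjusted p = 0.0251). Both lost their call when a set was left out, Fkbp11 at 0.0855 without set 1 and 0.0608 without set 3, and Sdc1 at 0.0852 without set 2 and 0.158 without set 3. Prdm1, which encodes Blimp-1, the repressor that fixes plasma cell fate, fell: it stood at 44.7 and 22.5 CPM in IgG1 sums with IL-4+R848 and at 22.7, 38.3 and 18.9 CPM with R848, against 96.6 and 79.98 CPM, and 68.4, 89.9 and 74.9 CPM, in the matching IgM sums. Each IgG1 sum lay below its IgM partner (-1.50 ± 0.14, adjusted p = 0.00127).

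Txndc5, an ER disulfide isomerase, averaged 752 ± 237 CPM in IgG1 and 2376 ± 184 CPM in IgM sums (-1.71 ± 0.22, adjusted p = 0.00365, and 0.0591 without set 3). Tnfrsf17, the gene of the survival receptor BCMA, averaged 13.1 ± 8.35 and 34.5 ± 9.08 CPM (-1.48 ± 0.28, adjusted p = 0.0152, and 0.072 without set 1). Pou2af1, the coactivator of octamer factors, also fell (-0.86 ± 0.15, adjusted p = 0.0105, and 0.0949 without set 3). Xbp1, the transcription factor of the secretory programme, averaged 1948 ± 366 CPM in IgG1 and 1612 ± 183 CPM in IgM sums and did not pass (adjusted p = 0.462), nor did Irf4 at 145 ± 43.8 and 166 ± 28.3 CPM (adjusted p = 0.463). Jchain averaged 25597 ± 2168 and 17961 ± 1976 CPM and did not pass (0.51 ± 0.25, adjusted p = 0.233).

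B cell genes were lower in IgG1 members. Of 18 tested genes of a B cell identity list, 10 were lower and 0 higher in IgG1 cells, and the median log2 fold change was -0.86. Blk, a kinase of the B cell receptor, averaged 12 ± 4.66 CPM in IgG1 and 47.3 ± 11.9 CPM in IgM sums (-2.06 ± 0.19, adjusted p = 0.00113). Irf8, a transcription factor of B cells, averaged 41.0 ± 17.1 and 132 ± 43.9 CPM (-1.73 ± 0.21, adjusted p = 0.00294). Fcmr, the IgM Fc receptor, averaged 45.8 ± 10.2 and 110 ± 17.1 CPM (-1.34 ± 0.16, adjusted p = 0.00282), and Ms4a1 118 ± 9.16 and 224 ± 18.9 CPM (-0.92 ± 0.07, adjusted p = 0.00044). These 4 of the 10 calls held with each set left out. Cr2, the gene of CD21, averaged 3.37 ± 3.72 and 15 ± 4.09 CPM (-2.34 ± 0.42, adjusted p = 0.0125, and 0.13 without set 1 and 0.0528 without set 3). Of 11 tested MHC class II genes, 1 was higher (Ifi30) and 1 lower (H2-DMb2), with a median of -0.41, and neither held with each set left out (adjusted p up to 0.122 and 0.158).

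The 4 tested genes of a germinal center list, of 10 listed, were higher in IgG1 cells, with a median log2 fold change of 1.86. Nuggc, a nuclear GTPase of germinal center B cells, averaged 26.9 ± 3.94 CPM in IgG1 and 4.90 ± 2.89 CPM in IgM sums (2.36 ± 0.31, adjusted p = 0.00407). Basp1, a membrane signalling protein, averaged 105 ± 38.2 and 31.8 ± 1.41 CPM (1.78 ± 0.19, adjusted p = 0.00176), and Mef2b, a transcription factor, 63.8 ± 20.2 and 24.1 ± 7.53 CPM (1.48 ± 0.14, adjusted p = 0.00127). Fas, the death receptor, averaged 23.2 ± 7.82 and 6.28 ± 3.39 CPM (1.95 ± 0.37, adjusted p = 0.0159, and 0.0646 without set 2 and 0.122 without set 3). A list of which only 4 members were detected well enough to test describes those 4 genes and no programme.

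Antibody glycosylation genes split. Fut8, which adds the core fucose of the antibody's sugar, rose: it stood at 318.5 and 183 CPM in IgG1 sums with IL-4+R848 and at 302, 288 and 272.5 CPM with R848, against 115 and 73.4 CPM, and 105, 89.9 and 105 CPM, in the matching IgM sums. No IgG1 sum overlapped an IgM sum (1.48 ± 0.08, adjusted p = 0.000309). B4galt1, which adds galactose, fell (19.4 ± 3.75 CPM in IgG1 and 42.1 ± 8.15 CPM in IgM sums, -1.13 ± 0.12, adjusted p = 0.00173), as did the mannosidase Man1a (95.8 ± 28.1 and 181 ± 18.1 CPM, -0.94 ± 0.11, adjusted p = 0.00283). Man2a1 and the sialyltransferase St6gal1 were the other 2 lower members (-0.97 and -0.67), and lost their calls without set 3 (adjusted p = 0.121 and 0.0528), Man2a1 also without set 2 (0.0999). Of 14 members 1 rose, 4 fell and 9 did not pass, and the median was -0.07.

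Some secretory genes rose, but none of the calls in the next 3 lists held with each set left out. Over all genes tested 6.36% were higher in IgG1 cells. Of 26 ER folding and stress genes 5 were higher and 0 lower (median 0.17), among them Hspa5, the chaperone BiP, at 3605 ± 961 CPM in IgG1 and 2124 ± 597.5 CPM in IgM sums (0.76 ± 0.20, adjusted p = 0.0465). Without set 1, 2 or 3 its adjusted p was 0.287, 0.109 and 0.184. Creld2, an ER stress protein, averaged 1708 ± 392 and 961 ± 146 CPM (0.81 ± 0.19, adjusted p = 0.0301, and 0.150, 0.0832 and 0.174 without set 1, 2 or 3). Of 20 translocation and secretion genes 3 were higher and 0 lower (median 0.08), led by Lman1, a cargo receptor, at 568 ± 70.2 and 338 ± 15 CPM (0.74 ± 0.12, adjusted p = 0.00992, and 0.0904 without set 1 and 0.072 without set 3). Of 17 oxidative phosphorylation genes 6 were higher and 0 lower (median 0.25), with Sdhb, a subunit of complex II, at 154 ± 12 and 107 ± 6.02 CPM (0.54 ± 0.07, adjusted p = 0.00376, and 0.0677 without set 1). Ribosomal protein genes had a median of -0.26 and 1 rose and 2 fell of 79.

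Survival genes were lower or did not pass. Of 12 tested genes 5 were lower and 0 higher in IgG1 cells (median -0.23), against 6% lower and 6.36% higher over all genes tested. Bcl2l11, the gene of the death-promoting protein Bim, averaged 32.8 ± 17.8 CPM in IgG1 and 134 ± 23.5 CPM in IgM sums (-1.98 ± 0.19, adjusted p = 0.00127), and Bcl2, which opposes it, 2.35 ± 1.94 and 15.4 ± 6.72 CPM (-2.65 ± 0.46, adjusted p = 0.0111, and 0.116 without set 3). The members that fell thus included genes of both signs of action.

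Genes of movement also split, with 4 higher and 5 lower of 17 tested (median 0.21). Cxcr3, a receptor for interferon-induced chemokines, averaged 73.1 ± 27.6 CPM in IgG1 and 28.3 ± 10.0 CPM in IgM sums (1.32 ± 0.15, adjusted p = 0.00232, and 0.0573 with the 10-fold tag ratio). S1pr1, the receptor that guides cells into blood and lymph, averaged 4.04 ± 2.52 and 23.4 ± 6.93 CPM (-2.58 ± 0.38, adjusted p = 0.00578, and 0.0733 without set 3). Of 13 tested interferon genes 2 were higher and 3 lower (median -0.36). Bst2, the antiviral tether tetherin and a plasma cell antigen, averaged 368 ± 24.5 CPM in IgG1 and 150.5 ± 18.5 CPM in IgM sums (1.30 ± 0.10, adjusted p = 0.000539). Ifi27l2a, another interferon-induced gene, averaged 189.5 ± 116 and 484 ± 69.4 CPM (-1.51 ± 0.24, adjusted p = 0.00832, and 0.109 without set 3). Of 7 tested genes of an IL-4 and STAT6 list 2 were lower and 0 higher (median 0.07), and of 9 tested TLR7 and NF-kB genes 2 were lower and 0 higher (median -0.27), and none of these 4 calls held with each set left out.

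**Figure D3:**
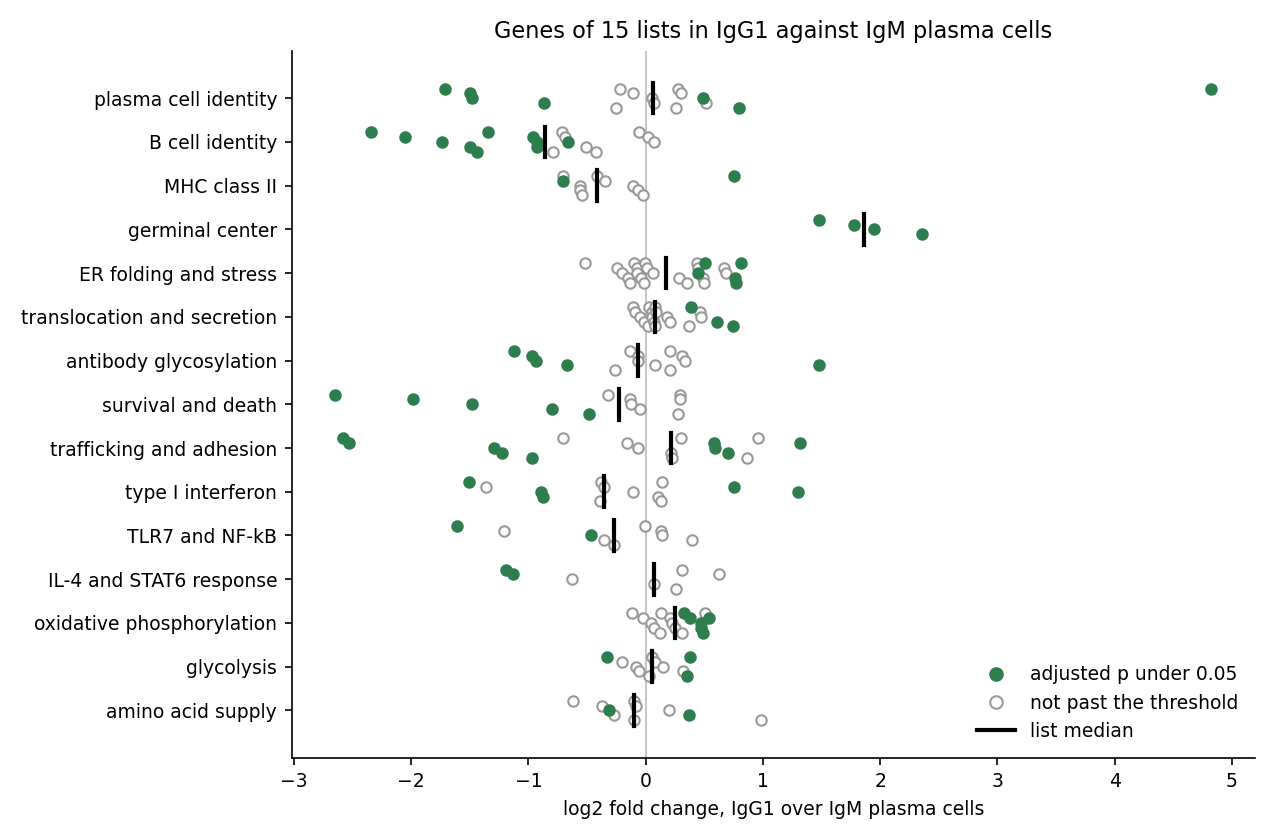
Log2 fold changes of IgG1 over IgM plasma cells for the tested genes of 15 lists; each point is a gene, filled where its BH-adjusted p was under 0.05, and the bar is the list's median. B cell identity genes lie to the left, the 4 germinal center genes to the right, and Slpi stands alone near 4.82.

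Surface proteins measured by antibody tags gave a second view of the same cells. The CD138 tag was higher on IgG1 than on IgM cells in 6 of 6 pairs of set and treatment, with medians of 285 to 453 UMIs per IgG1 cell and 126.5 to 217 per IgM cell (two-sided exact sign-flip permutation p = 0.03125, the lowest that 6 pairs allow, BH-adjusted 0.075 over 12 tags). It was also higher than on IgG2b or IgG2c cells in 6 of 6 pairs, at 216 to 325 UMIs (exact permutation p = 0.03125, adjusted 0.1875). The IgM tag had medians of 3 to 5.5 UMIs on IgG1 and 36.5 to 65 on IgM cells. Because the classes were defined by their constant gene, this difference follows from the rule and its p is no separate result. The CD21 tag had 6 to 25 and 47.5 to 112 UMIs, the same direction as its gene Cr2, and 9 to 31 on IgG2b or IgG2c cells. The IgD tag had 12.5 to 16 and 16.5 to 29 UMIs, and the GL7 tag 4 to 9 and 7 to 17. Each of these tags was lower on IgG1 than on IgM cells in 6 of 6 pairs, with the same p as CD138, and none passed 0.05 after adjustment. Both treatments of a set shared a library, so the 6 pairs are not independent and these p-values can be too low. The hashtags were lower on IgG1 than on IgM cells too, as given above, in the direction opposite to CD138.

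**Figure D4:**
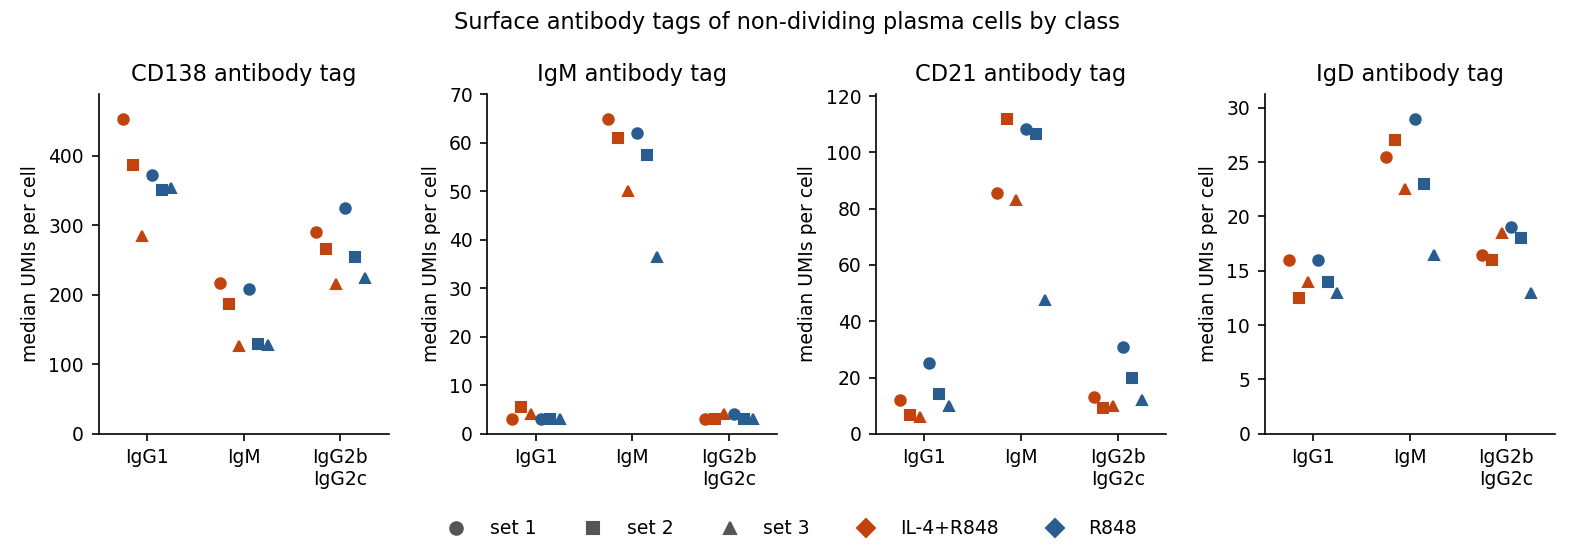
Median UMIs per cell of 4 surface antibody tags on IgG1, IgM and IgG2b or IgG2c plasma cells. Each point is a set and treatment; CD138 is highest on IgG1 cells within each set and treatment, and the IgM and CD21 tags mark the IgM cells.

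IgG1 members were close to IgG2b and IgG2c cells in these tests. Of 5532 genes 8 passed, which is 0.145% of those tested (2 higher, 0.0362%, and 6 lower, 0.108%), and 379 (6.85%) had an unadjusted p under 0.05. Without set 1, 2 or 3 the counts were 12, 8 and 4. Of the 8, Ighg1, Ighg2b and Ighg2c were used by the rule and Ighv1-11, Ighv2-5 and Ighv2-9-1 are variable genes. The remaining 2 were Fcer1g and Tmem176b. A gene that misses the threshold here is not shown to be alike in both classes.

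Fcer1g, the signalling chain that Fc receptors share, stood at 33.1 and 26.5 CPM in IgG1 sums with IL-4+R848 and at 20.7, 36.7 and 19.7 CPM with R848. In IgG2b and IgG2c sums it stood at 93.2 and 54.5 CPM with IL-4+R848 and at 77.7, 121 and 97.5 CPM with R848, so the groups did not overlap (log2 fold change -1.80 ± 0.15, adjusted p = 0.00424). The call was lost without set 1 (adjusted p = 0.0601) and with the 10-fold tag ratio (0.160). NK-gate cells held 1679 to 1760 CPM of Fcer1g, and the part of free RNA in the difference was not tested; IgM cells held 39.2 to 52.3 CPM and cells without plasma cell genes 25.3 to 37.8 CPM. Tmem176b averaged 236 ± 74.3 CPM in IgG1 and 140 ± 42.2 CPM in IgG2b and IgG2c sums (0.74 ± 0.09, adjusted p = 0.0359). It was higher in IgG1 cells in 5 of 5 pairs of sums, but the adjusted p was 0.279, 0.0546 and 0.944 without set 1, 2 or 3, and 0.644 with no block. Without further normalisation, the left-out pair (IL-4+R848, set 2) held 20.3 CPM of Tmem176b in IgG1 (3 counts) and 98.5 CPM in the other class. Slpi averaged 18162 ± 4145 and 10200.1 ± 1024 CPM, with IgG1 above in 5 of 5 pairs (0.81 ± 0.28), and did not pass (adjusted p = 0.651). The left-out pair went the other way, at 3650 CPM of Slpi in IgG1 and 9934 CPM in IgG2b or IgG2c cells without further normalisation. After thinning, 84.2% of IgG1 and 82.3% of IgG2b or IgG2c cells had a Slpi UMI. Slpi passed with DESeq2 (adjusted p = 3.71e-06) and with immunoglobulin genes left out (0.000198), and its adjusted p was 0.569 to 0.965 under the other alternatives run. Genes that separated IgG1 from IgM cells had close levels here: Fut8 averaged 249 ± 47.8 and 229 ± 9.37 CPM, Bst2 336 ± 22.6 and 327 ± 11 CPM, and Prdm1 26.9 ± 10.3 and 34.1 ± 11.6 CPM, and none of these passed.

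IL-4 complex given with R848 was set against R848 within IgG1 members to ask what IL-4 changes in these cells. Of 4169 genes tested 3 passed, 0.072% of them (2 higher, 0.048%, and 1 lower, 0.024%), and 221 (5.3%) had an unadjusted p under 0.05. The 3 genes were variable genes: Ighv1-39 and Ighv1-47 were higher with IL-4+R848 and Igkv3-4 lower. Each rests on few cells, since Ighv1-39 was the main heavy chain of 3 members, Ighv1-47 of 3 and Igkv3-4 the main light chain of 5. With the set as a block 0 genes passed, and without set 1, 2 or 3 the counts were 8, 5 and 33. With the 10-fold tag ratio Ighv1-39 and Ighv1-47 passed and Igkv3-4 did not. The test rests on 2 sums against 3.

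Il4i1, an amino acid oxidase named for its induction by IL-4, had the largest difference outside the variable genes among those followed here, and was singled out after its values were seen. It stood at 38.9 and 60.7 CPM with IL-4+R848 and at 2.87, 8.15 and 2.29 CPM with R848 (log2 fold change 3.55 ± 0.50), and did not pass (adjusted p = 0.158). With immunoglobulin genes left out of the table, Il4i1 was the single gene called (adjusted p = 0.00846). Over the alternatives run the adjusted p of Il4i1 lay between 4.42e-15, with no filter on low counts, and 1, with the 10-fold tag ratio, and the log2 fold change between 2.81 and 4.28. The 6 IL-4+R848 members of set 2, which were not in this test, had 0 Il4i1 UMIs of 147935, a depth that allows up to 20.3 CPM. A UMI was found in 11.5% of IL-4+R848 and 2.96% of R848 members after thinning (14.8% and 3.60% before), against 3 of 16 and 0 of 4 NK-gate cells after thinning. Before thinning, 7.69% of 78 NK-gate cells had one with IL-4+R848 and 0 of 33 with R848, at median depths of 6832.5 and 6416 UMIs. The IL-4+R848 share in members thus lay below that of NK-gate cells after thinning and above it before, and the R848 share lay above it both times, on few NK-gate cells. The part of free RNA in the Il4i1 values was not tested. In cells without plasma cell genes Il4i1 stood at 394, 413 and 341 CPM with IL-4+R848 and at 89.4, 120.01 and 98.99 CPM with R848. Without further normalisation, IgG2b or IgG2c cells held 23.7, 21.5 and 43.5 CPM with IL-4+R848 and 8.83, 2.68 and 8.71 CPM with R848. IgM cells held 26.7, 18.6 and 22.8 CPM with IL-4+R848 and 7.87, 15.7 and 1.46 CPM with R848. Higher Il4i1 with IL-4+R848 was thus not limited to IgG1 members.

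Some antigen presentation and B cell genes had positive values without passing. H2-DMa, a peptide-loading factor of MHC class II, stood at 94.1 and 121 CPM with IL-4+R848 and at 51.7, 44.0 and 32.8 CPM with R848 (1.33 ± 0.24, adjusted p = 0.361). The left-out IL-4+R848 sum of set 2 held 40.6 CPM of H2-DMa without further normalisation, within the 30.7 to 50.2 CPM of the R848 sums on that scale. Cd83, which keeps MHC class II on the surface, stood at 35.1 and 63.6 CPM and at 10.1, 1.63 and 10.7 CPM (2.45 ± 0.53, adjusted p = 0.663). The left-out sum held 27.0 CPM of Cd83, on 4 counts, against 1.43 to 9.98 CPM in the R848 sums without further normalisation. Of 14 tested B cell identity genes 13 had positive values (median log2 fold change 0.58) and of 11 MHC class II genes 10 did (median 0.48), against 0.01 over all genes tested, with 0 calls in either list. In IgG2b or IgG2c cells H2-DMa stood at 91.8 to 111 CPM with IL-4+R848 and 54.0 to 77.2 CPM with R848, without further normalisation. Cd83 stood at 40.4 to 49.3 and 11.9 to 23.8 CPM there, and in IgM cells the treatments overlapped for both genes. In cells without plasma cell genes H2-DMa stood at 824 to 839 CPM with IL-4+R848 and 538 to 583 CPM with R848, and Cd83 at 670 to 705 and 334 to 372 CPM. These values move with the result, and the part of free RNA or of wrongly tagged cells in it was not tested.

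Outside the variable genes, no antibody or secretion gene passed between treatments. Slpi averaged 21325 ± 1853 CPM with IL-4+R848 and 15402 ± 3428 CPM with R848 (0.47 ± 0.71, adjusted p = 0.999). The IL-4+R848 sum of set 2, left out of these means, held 3650 CPM of Slpi without further normalisation, against 11701 to 16643 CPM in the R848 sums on that scale. The log2 fold change of Slpi was 0.02 with that sum kept and -0.24 with the block as well, and 0.14 with the 10-fold tag ratio. Its direction thus turned with these 6 cells kept and the block together. With the 10-fold tag ratio it stayed positive and was smaller. Jchain averaged 20890.2 ± 188 CPM with IL-4+R848 and 24140 ± 435 CPM with R848 (-0.21 ± 0.76, adjusted p = 0.999). The left-out IL-4+R848 sum of set 2 held 25126 CPM of Jchain without further normalisation, above the 21554 to 23559 CPM of the R848 sums. Ighe, the IgE constant gene that IL-4 also favours, stood at 46.4 and 40.5 CPM with IL-4+R848 and at 0, 8.15 and 28.98 CPM with R848 (adjusted p = 0.999). These values rest on few cells: Ighe was found in 2 of 61 IL-4+R848 and 3 of 139 R848 members (3.28% and 2.16%). In IgG2b or IgG2c cells the shares were 2.43% with IL-4+R848 and 3.61% with R848. Plasma cell identity genes had a median of -0.21, with 0 of 16 called. All 10 tested genes of a handling stress list, such as Egr1 and Ier2, were negative (median -0.64, 0 called), and 73 of 79 ribosomal protein genes were positive (median 0.24, 0 called). CD138 tag medians averaged 375 ± 84.6 UMIs with IL-4+R848 and 359 ± 11.4 UMIs with R848 (exact permutation p = 0.70). Of the 12 tags, only CD11c (12 ± 3.50 and 6.67 ± 0.577 UMIs) and CD273 (2.67 ± 0.577 and 0.667 ± 0.577 UMIs) did not overlap between treatments. Both had the lowest p this test allows (exact permutation p = 0.10, adjusted 0.60). NK-gate cells carried CD11c medians of 28 to 253.5 UMIs. CD273 medians were 0 to 3 UMIs in members, 0 to 1.5 in NK-gate cells and 1 to 2 in cells without plasma cell genes. The IL-4+R848 medians of set 2 rest on 6 cells.

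**Figure D5:**
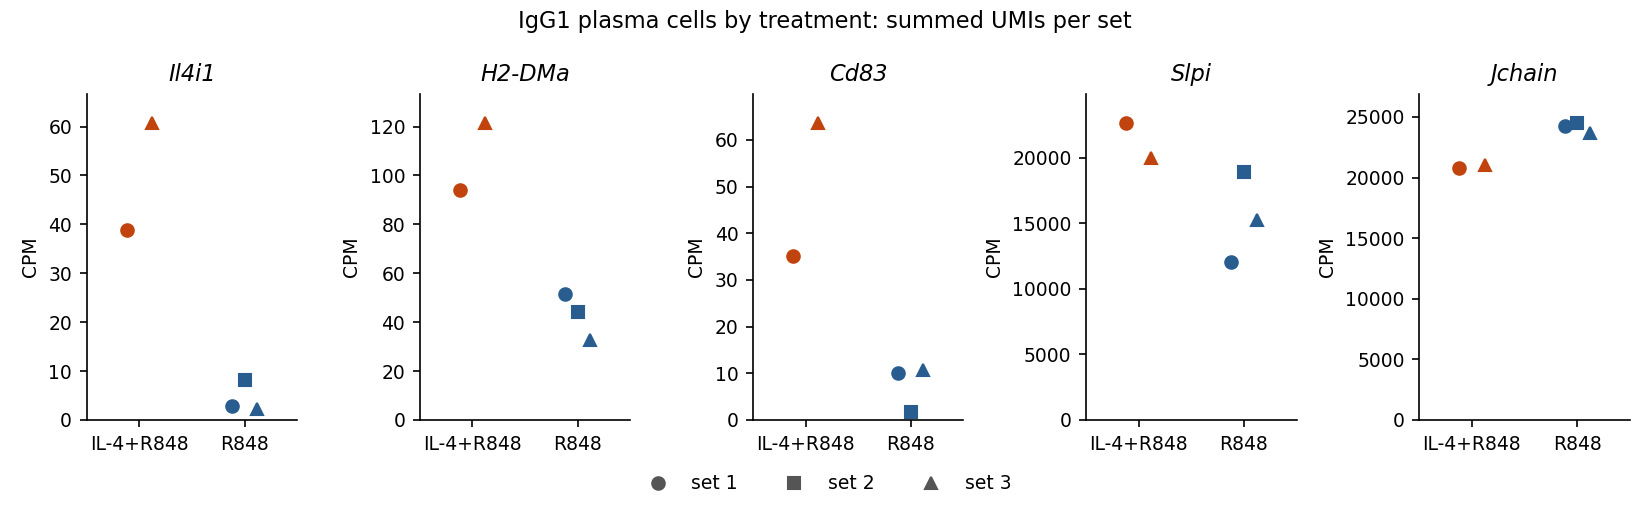
Levels of 5 genes in IgG1 plasma cells of IL-4+R848 (left) and R848 mice (right), in CPM on TMM-normalised library sizes. Each point is the summed UMIs of a set; the IL-4+R848 sum of set 2 (6 cells) was left out, and none of the 5 genes passed the test.

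The effect of IL-4 in IgG1 cells was compared with that in IgM cells in one model. Of 6174 genes 2 passed, 0.0324% of those tested (1 higher and 1 lower, 0.0162% each), both light chain variable genes (Igkv6-15 and Igkv3-4), and 278 (4.5%) had an unadjusted p under 0.05. With the set as a block 1 gene passed, and without set 1, 2 or 3 the counts were 0, 1 and 0. Neither of the 2 genes was called again without set 1, 2 or 3 or with the 10-fold tag ratio. Cd3g, a T cell gene, had an interaction of 8.49 ± 1.58 (adjusted p = 0.438) and was called with no filter and with immunoglobulin genes left out. It stood at 26.2 and 0 CPM in IgG1 sums with IL-4+R848 and at 0, 0 and 0.850 CPM with R848, and in IgM sums at 1.68, 0 and 0 CPM with IL-4+R848 and 8.52, 11.96 and 7.48 CPM with R848. Slpi gave an interaction of -0.21 ± 0.80 on the log2 scale (adjusted p = 1), an estimate smaller than its error, and -1.15 with the 10-fold tag ratio and 0.45 without set 1.

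Antibody variable genes showed a diverse population. A main heavy and light chain variable gene could be named in 200 of 200 members, in 179 distinct pairs, and 19 pairs were seen in more than 1 member, holding 40 members (20%). The most frequent, Ighv1-18 with Igkv14-111 and Ighv1-47 with Igkv16-104, were seen in 3 members each, in both cases across 2 sets. In IgM cells 37.0% and in IgG2b or IgG2c cells 37.3% lay in repeated pairs, but these are larger groups, in which repeats are more likely. Of the members of set 1, 24% had a pair that also occurred in plasma cells of other classes of set 1, against 12% and 29.3% for those of sets 2 and 3. For members of set 2 the value was 17.1% for each of the 3 sets, and for members of set 3 it was 27.8% for set 3, against 30% and 17.8% for sets 1 and 2. Pairs were thus shared with other classes about as often across sets as within a set, and gene names alone do not mark clones.

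Ighv1-18 was the most used heavy chain gene, in 12 members (6%, in each of the 3 sets), against 1.88% of IgM and 1.79% of IgG2b or IgG2c cells. Lambda light chains were the main light chain of 8.5% of members, against 20.5% of IgM and 9.39% of IgG2b or IgG2c cells. Immunoglobulin genes took a median of 52.2% of a member's UMIs, against 38.0% in IgM and 48.5% in IgG2b or IgG2c cells. BXD2 mice carry DBA/2 alleles in part of their genome while the build is of C57BL/6J, so reads of variable genes may be named for a near-identical copy.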

How the data were processed

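The 3 libraries of spleen B cells were made with a single-cell 5′ kit after labelling with 2 hashtag and 12 surface antibodies, per the labels' protocols. Values in the deposited matrices are whole-number UMI counts of genes and antibody tags in each barcode, not normalized; Cell Ranger 6.0.1, mm10 and Seurat 4.1.3 are named in the submitters' processing notes. Deposited barcodes numbered 14519, 11389 and 14222 with 107244246, 96866964 and 99522280 gene UMIs. Cells needed at least 500 genes, under 10% mitochondrial UMIs, and 1 hashtag with at least 64 UMIs and at least 4 times the other plus 1; the tags are named Con_fb (R848) and IL4tr_fb (IL-4+R848) in the files. Barcodes counted as having both tags, with neither at least 4 times the other plus 1, were removed (10.8%, 8.28% and 9.23%). Some of these may be weakly tagged single cells, and doublets of one treatment remain. The NK gate needed at least 3 Nkg7 UMIs, as many of Ncr1, Klrb1c and Gzma together, at most 1 of Cd79a and 0 of Edem1.

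The members and gene lists were chosen with earlier results of these data known. For each class, the cells of a set and treatment were added up (at least 10 cells), and these sums were compared in R 4.3.3 by the quasi-likelihood test of edgeR 4.0.16 after filterByExpr and TMM scaling, with a BH-adjusted p under 0.05. Classes were compared with set and treatment as a block, treatments without a block. Shares and tags were compared by exact permutation tests, which between treatments did not pair the treatments of a set. Genes were named by rule: the 8 largest rises and falls past the threshold with 1 sign in every block and at least 20 CPM, up to 3 passing members per list and direction, and fixed markers; Il4i1, H2-DMa, Cd83 and others were added after their values were seen, and some further passing list members are named. Sets pair treatments, since each library holds both, per the labels. Same-set deviations of IgG1 sums correlated at -0.156, and of IgM sums at -0.087, -0.0733 and -0.129. The IgG1 value uses sets 1 and 3 only, whose deviations from their mean mirror each other. It therefore cannot tell whether IgG1 sums of a set deviate together, and the IgM sums showed no positive same-set correlation. The code was tested on simulated data. Alternatives were DESeq2 1.42.0, other scaling, no filter, another block, other thresholds and leaving out each set. Python 3.11.15, SciPy 1.17.1, limma 3.58.1 and matplotlib 3.10.9 were used. Intervals and floors cover counting error only.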

Additional observations from a re-analysis of the deposited data

Results flagged for a closer look

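In 2 light chain variable genes the effect of IL-4 differed between IgG1 and IgM plasma cells by the interaction test (edgeR). Igkv3-4 had an interaction of -8.63 ± 0.99 on the log2 scale (adjusted p = 0.0303). It stood at 38.5 and 31.6 CPM in IgG1 sums with IL-4+R848 and at 14977, 17229 and 16082 CPM with R848, while IgM sums held 8386, 5494 and 2722 CPM with IL-4+R848 and 10513, 6316 and 2333 CPM with R848. It was the main light chain gene of 5 IgG1 members. Igkv6-15 had an interaction of 9.72 ± 1.25 (adjusted p = 0.0395). It stood at 1677 and 12621 CPM in IgG1 sums with IL-4+R848 and at 8.03, 10.8 and 8.5 CPM with R848, while IgM sums held 5975, 16736 and 2763 CPM with IL-4+R848 and 8069, 7753 and 11787 CPM with R848. It was the main light chain gene of 1 member. With the set as a block Igkv3-4 was called and Igkv6-15 was not, and neither was called again without set 1, 2 or 3 or with the 10-fold tag ratio.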

How the results depend on the processing

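Between IgG1 and IgM cells 686 genes were called. The count was 1066 with immunoglobulin genes left out, 328 with the 10-fold tag ratio, and 149 to 381 with each set left out; no gene named in the text changed direction. Between IgG1 and IgG2b or IgG2c cells the 8 calls became 48 with DESeq2, 46 with no filter, 5 with no replicate block, 16 with immunoglobulin genes left out, and 4 to 12 with each set left out. Between treatments the 3 calls became 28 with DESeq2, 155 with no filter, 0 with the replicate block, 1 with immunoglobulin genes left out, and 5 to 33 with each set left out. Keeping the sum of 6 cells, an alternative chosen after seeing the data, gave 0 calls, and 1 with the block as well. For the interaction the 2 calls became 24 with DESeq2, 8 with no filter, 1 with the replicate block, 1 with immunoglobulin genes left out, 0 with the 10-fold tag ratio, and 0 to 1 with each set left out. The IL-4+R848 minus R848 difference in the IgG1 share of plasma cells, 0.118 percentage points, became -0.996 with a gate on rates per 10000 UMIs, -0.642 with a share of 95%, and -2.43 to 2.00 with each set left out. That in the share of all cells became 0.0537 and that in the dividing share -2.88 with the 10-fold tag ratio. The cause of these changes was not tested. Depth limits the IL-4+R848 sum of set 2 most.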
